A study of Mus musculus with 6 samples.

Results

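Autophagy and mitophagy genes were examined in mouse heart libraries from a study of the transcription factor TFEB, which controls many lysosome and autophagy genes. The set holds 42 genes chosen by name for their place in the pathway, with earlier results of these data known. All 42 were found by symbol among the 17524 genes of the expression table. The TFEB overexpression animals were R26-LSL-TFEB [+/+]; Acta2-cre mice, in which Cre recombinase removes a stop cassette and switches on TFEB from the Rosa26 locus. The Cre transgene uses the Acta2 (smooth muscle actin) promoter. The cassette can thus be switched on in cells that use or once used that promoter, such as smooth muscle cells and myofibroblasts, and stays on in their descendants. Which cells of these hearts carried the active cassette was not tested. The control animals are labelled WT, and the sources used here do not say whether they carried Cre or the cassette. Mice of both groups had the anterior descending branch of the left coronary artery ligated, which causes a myocardial infarction; the sources used here give no age, sex or time after ligation. There were 3 TFEB overexpression libraries (TFEB 34, 41 and 43) and 3 control libraries (control 35, 36 and 37), named after the numbers in their titles.

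Autophagy delivers cytoplasm, protein aggregates and worn organelles to the lysosome inside a double-membraned vesicle, the autophagosome. A kinase complex starts the process, a lipid kinase complex marks the membrane, a ubiquitin-like conjugation system attaches small ubiquitin-like proteins to it, receptors load the cargo, and tethers bring the finished vesicle to the lysosome. Mitophagy is the same route for damaged mitochondria, and heart muscle, which is packed with mitochondria, depends on it. TFEB binds the CLEAR element, an E-box motif near the start of many lysosome and autophagy genes, and raises their transcription.

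The libraries held 12942480 to 14969287 estimated counts, and levels of single genes are given as CPM, which scales counts to library size (TMM), unless TPM is named. The labels describe the material both as heart tissue and as mouse primary fibroblasts. Genes of heart muscle dominated: Myh6, the main myosin heavy chain of the adult mouse ventricle, stood at 35791 ± 13032 CPM in TFEB overexpression and 36972 ± 7395 CPM in control (SD, n = 3 each). Tfeb itself stood at 45.4, 45.3 and 39.4 CPM in TFEB 34, 41 and 43, against 34.4, 33.8 and 41.4 CPM in control 35, 36 and 37. This is a log2 fold change of 0.25 with an SE of 0.12 and an adjusted p of 1.00 in edgeR's test, and it ran between 0.19 and 0.35 as each library was left out. The labels do not tie the libraries to separate animals, so the p-values speak of the spread among these libraries, which may be technical. In these bulk samples a smaller number of cells and less RNA per cell cannot be told apart, and each value is a sum over all cell types of the tissue.

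Per unit of transcript length, the most abundant members were the genes whose proteins coat the autophagosome and load it. TPM values, which scale counts by transcript length and depth, allow levels of different genes to be set side by side. Map1lc3a, which encodes the LC3A coat protein, reached 565, 789.7 and 826 TPM in TFEB 34, 41 and 43, and 753, 660.0 and 855 TPM in control 35, 36 and 37. It ranked first among the 42 members in every library, with Sqstm1 close behind it in TFEB 34. Sqstm1, the gene of the cargo receptor p62, averaged 413 ± 112 TPM in TFEB overexpression and 411 ± 44.1 TPM in control (SD, n = 3 each), and Gabarap averaged 359.5 ± 44.0 TPM in TFEB overexpression and 352 ± 27.2 TPM in control, so their TPM levels did not separate beyond the spread. Next came the lysosomal GTPase gene Rab7, at 275 ± 12.4 TPM in TFEB overexpression and 276 ± 30.2 TPM in control. Map1lc3b, Bnip3 and Gabarapl2 followed with mean TPM over the 6 libraries of 209, 204 and 200.2, which their ranges did not separate. In all, 10 members had a mean above 100 TPM. The 5 genes of these ubiquitin-like proteins, Map1lc3a, Map1lc3b, Gabarap, Gabarapl1 and Gabarapl2, made up 44.0% of the summed TPM of the members.

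At the other end, 7 members had a mean under 15 TPM: Ambra1, Pik3r4, Atg2b, Atg7, Vps18, Atg14 and Epg5. Epg5, a tether between autophagosome and lysosome, was the least abundant at 5.76 ± 0.523 TPM in TFEB overexpression and 5.64 ± 1.10 TPM in control (SD, n = 3 each). The summed TPM of all members was 3667 ± 124 in TFEB overexpression and 3749 ± 132 in control (SD, n = 3 each), a difference smaller than the spread within either group. In single libraries the members held 0.357% to 0.381% of all TPM in TFEB overexpression and 0.360% to 0.386% in control.

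**Figure D1:**
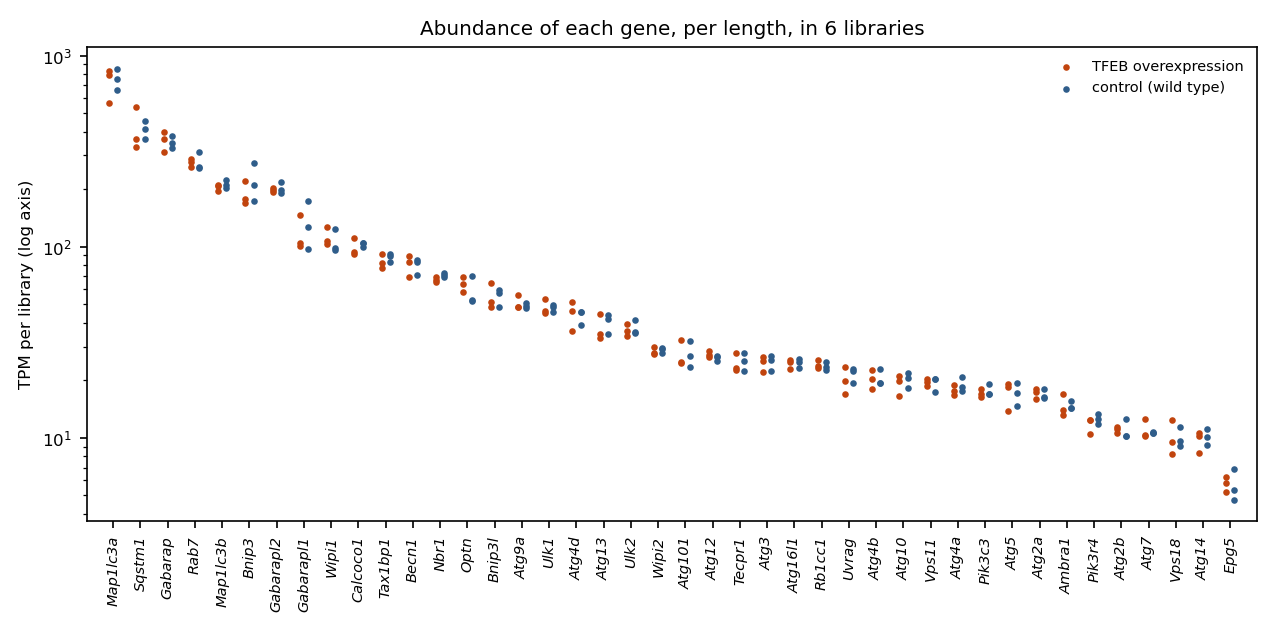
TPM of each of the 42 genes in the 3 TFEB overexpression libraries (orange) and the 3 control libraries (blue), on a log axis, ordered by the mean over all 6. Map1lc3a stands highest at 565 to 855 TPM and Epg5 lowest at 4.74 to 6.86 TPM, and the points of the groups overlap along the whole range.

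No autophagy or mitophagy gene passed the test for a difference between TFEB overexpression and control. Of the 42 members, all of which passed the filter on low counts, 0 rose and 0 fell at an adjusted p under 0.05 in edgeR's quasi-likelihood test, where 0.00% of the 13565 genes tested were called. DESeq2 and limma-voom also called 0 members. None of the members had an unadjusted edgeR p under 0.05, against 1.21% of all genes tested, and the smallest was 0.195, for Bnip3. The fold changes were small: they ran from −0.22 for Bnip3 to 0.13 for Optn on the log2 scale. Standard errors had a median of 0.11, against 0.18 over all genes tested.

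The intervals show how large a change these libraries leave room for. In 40 of 42 members the 95% interval of the fold change lay within 1.5-fold in either direction, as it did in 55.0% of all genes tested and in 73.7% of the 8259 genes with at least the mean CPM of the least counted member. This count was 36 to 39 as each library was left out and 40 to 42 under the other alternatives. The exceptions were Map1lc3a, with a ratio of 0.962 and an interval of 0.643 to 1.44, and Gabarapl1, with a ratio of 0.882 and an interval of 0.618 to 1.26. Becn1 was among the 3 members with the narrowest interval, and its ratio of 0.986 had an interval of 0.857 to 1.13. These intervals are for single genes and are not adjusted for the number of genes. They hold for RNA of the whole tissue.

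**Figure D2:**
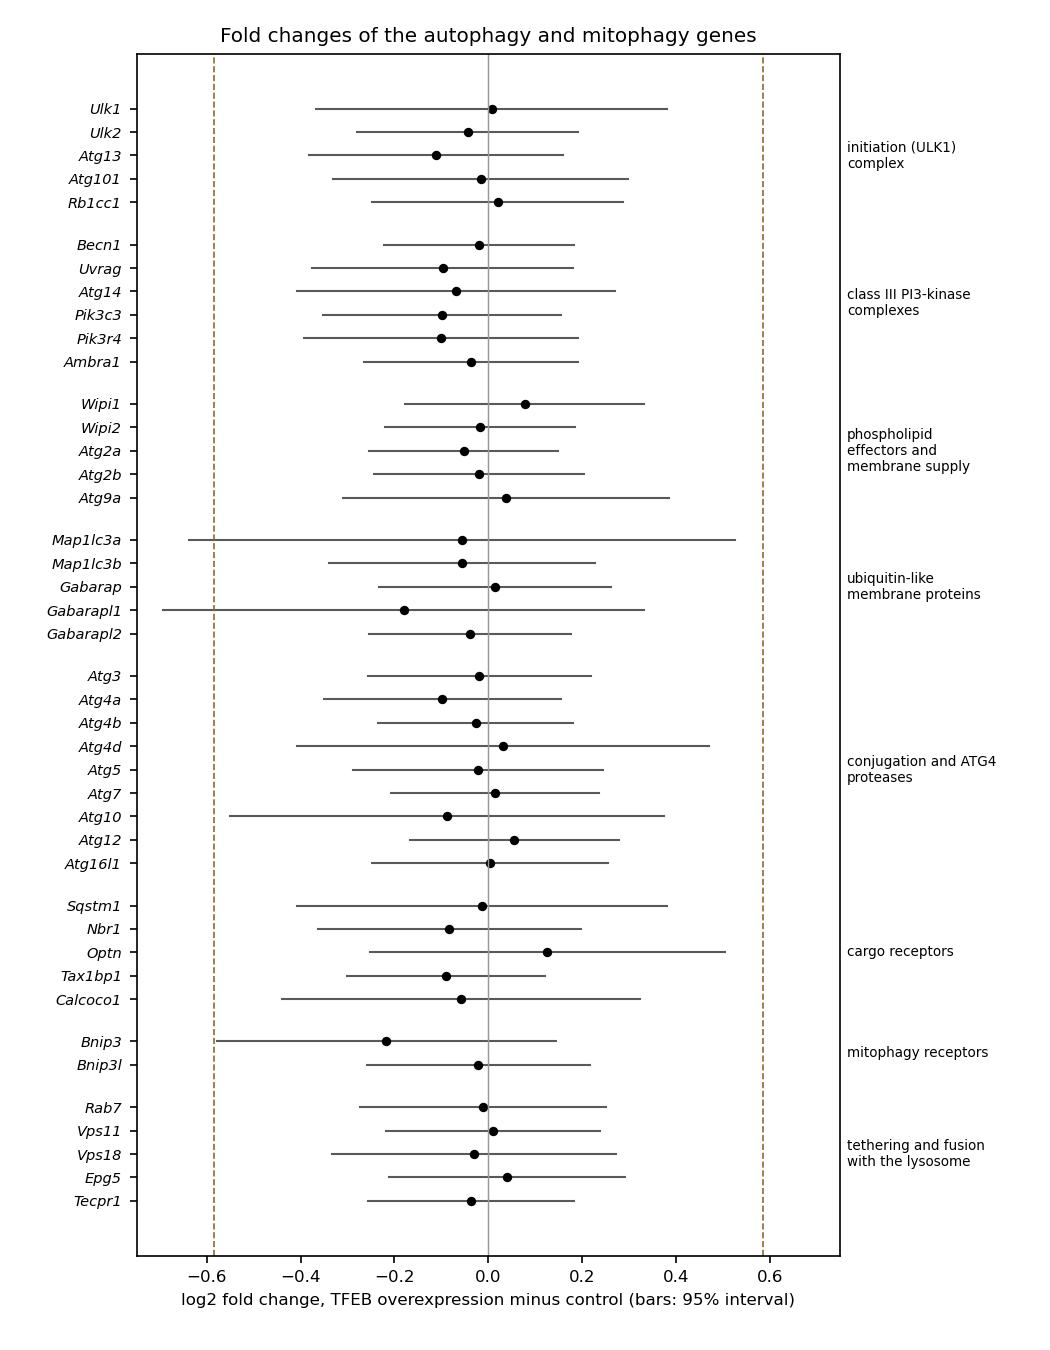
Log2 fold change, TFEB overexpression minus control, of each gene (points) with its 95% interval (bars), grouped by role; the dashed lines mark a 1.5-fold change in either direction. Every interval crosses 0, and those of Map1lc3a and Gabarapl1 alone reach past a dashed line.

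In sign, 12 of 42 members stood higher in TFEB overexpression and 30 lower; the median log2 fold change was −0.024; over all genes tested 51.0% were positive and the median was 0.0030. How far the members lay below all genes depended on the libraries included. Without TFEB 41, 23 of 42 members (54.8%) were higher and their median was 0.012, against 56.4% and 0.021 over all genes. Without TFEB 43, 11 of 42 (26.2%) were higher and their median was −0.074, against 48.2% and −0.0093 over all genes. In 12 members the sign was the same under all 14 alternatives tried, and in these all values stayed small, between −0.32 for Bnip3 without control 37 and 0.25 for Optn without TFEB 34. Only Tax1bp1 had CPM values in the groups that did not overlap, or 2.38% of the members against 4.75% of all genes tested. It was lower in TFEB overexpression, and genes that did not overlap and were lower made up 2.51% of all genes tested. By TPM its groups did overlap.

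The initiation complex consists of the kinases ULK1 and ULK2 with their partners ATG13, ATG101 and the scaffold RB1CC1. Ulk1 stood at 125, 132 and 174 CPM in TFEB 34, 41 and 43, against 146, 129 and 153 CPM in control 35, 36 and 37. TFEB 43 was the highest of the 6 and TFEB 34 the lowest, so the control libraries lay inside the range of the TFEB libraries, and the log2 fold change was 0.0075 (SE 0.16). Atg13, which anchors the kinase to its scaffold, had the smallest p of this complex. It stood at 85.2, 69.3 and 79.6 CPM in TFEB 34, 41 and 43, and at 91.3, 83.3 and 78.4 CPM in control 35, 36 and 37; TFEB 41 was lowest, control 35 highest, and the log2 fold change was −0.11 (SE 0.11). Ulk2, Atg101 and Rb1cc1 had log2 fold changes of −0.044, −0.016 and 0.020. No member of the complex passed the test.

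The class III PI3-kinase complexes make phosphatidylinositol 3-phosphate, the lipid that marks the growing membrane. All 6 of their genes had a slightly lower value in TFEB overexpression. Their median log2 fold change was −0.083, and 0 passed the test. With single libraries left out, Becn1, Atg14 and Ambra1 took both signs, while Uvrag, Pik3c3 and Pik3r4 stayed lower. Becn1, the scaffold of the complexes, stood at 83.8, 86.1 and 77.4 CPM in TFEB 34, 41 and 43, against 84.8, 85.1 and 80.9 CPM in control 35, 36 and 37. The values of the groups interleaved within a span of 1.11 times, and the log2 fold change was −0.020 (SE 0.084). The catalytic subunit gene Pik3c3 (VPS34) stood at 33.3, 34.9 and 39.8 CPM in TFEB 34, 41 and 43, and at 36.4, 41.4 and 37.8 CPM in control 35, 36 and 37. Control 36 was highest and TFEB 34 lowest, but TFEB 43 lay above control 35 and 37, with a log2 fold change of −0.10 (SE 0.11). Its regulatory partner Pik3r4 (VPS15) had a log2 fold change of −0.10 (SE 0.12). Atg14, which directs the complex to autophagosome formation, and Uvrag, the alternative subunit that acts on endosomes, had log2 fold changes of −0.069 and −0.10. That of Ambra1, a regulator that binds Beclin 1, was −0.037.

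None of the 5 genes that extend the membrane passed the test. WIPI proteins read the lipid mark, ATG2 proteins carry lipids into the membrane and ATG9A shuffles them between its leaflets. Wipi1 stood at 109.6, 101 and 106 CPM in TFEB 34, 41 and 43, against 90.4, 111 and 98.6 CPM in control 35, 36 and 37. Control 35 was lowest and control 36 highest, with the TFEB libraries between them, and the log2 fold change was 0.078 (SE 0.11). Wipi2, Atg2a, Atg2b and Atg9a had log2 fold changes of −0.017, −0.052, −0.020 and 0.038.

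The ubiquitin-like proteins are attached to the membrane, where receptors dock. None of their 5 genes passed the test, and Map1lc3a and Gabarapl1 had the widest spread over the 6 libraries among all members. Coordinates are those of RefSeq in build GRCm38.p6. Map1lc3a (Entrez gene 66734, on chromosome 2 between 155276364 and 155278073) stood at 245, 372 and 421 CPM in TFEB 34, 41 and 43, against 355, 295 and 429 CPM in control 35, 36 and 37. TFEB 34 was lowest and control 36 next, and the groups overlapped, with a log2 fold change of −0.056 (SE 0.24). Without TFEB 34 it was 0.14, and without TFEB 43 it was −0.22.

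Map1lc3b (Entrez gene 67443, on chromosome 8 between 121590438 and 121598760), the LC3 gene most used as a readout of autophagy, was steadier. It stood at 258, 260.2 and 300.2 CPM in TFEB 34, 41 and 43, against 297, 264 and 289.8 CPM in control 35, 36 and 37. TFEB 43 was the highest and TFEB 34 the lowest, and the log2 fold change was −0.056 (SE 0.12). Gabarap (Entrez gene 56486, on chromosome 11 between 69991370 and 69994949), whose protein was named for the GABA receptor, stood at 190.2, 190.2 and 175 CPM in TFEB 34, 41 and 43, and at 197, 172 and 181 CPM in control 35, 36 and 37, with a log2 fold change of 0.015 (SE 0.10). Its lowest value, in control 36, and its highest, in control 35, both belonged to control.

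Gabarapl1 (Entrez gene 57436, on chromosome 6 between 129533192 and 129542331), a family member induced by FOXO factors, stood at 124, 95.3 and 100.4 CPM in TFEB 34, 41 and 43, against 158, 109.7 and 94.7 CPM in control 35, 36 and 37. Control 35 stood apart above the other 5 libraries, which ran from 94.7 to 124 CPM. The log2 fold change was −0.18 (SE 0.21) with all libraries and 0.060 without control 35. Gabarapl2 (Entrez gene 93739, on chromosome 8 between 111940703 and 111952915) stood at 80.6, 85.5 and 90.1 CPM in TFEB 34, 41 and 43, against 82.6, 89.7 and 90.9 CPM in control 35, 36 and 37, giving a log2 fold change of −0.040 (SE 0.089). Its libraries lay within a span of 1.13 times.

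The conjugation system attaches these proteins to lipid. ATG7 activates them, ATG3 and ATG10 pass them on, the ATG12, ATG5 and ATG16L1 complex fixes the site, and ATG4 proteases trim the precursors and recycle the lipid-bound form. Of these 9 genes, 4 had a higher and 5 a lower value in TFEB overexpression, the median log2 fold change was −0.019, and 0 passed the test. Atg4a, whose p was the smallest of the group, stood at 19.8, 20.1 and 20.6 CPM in TFEB 34, 41 and 43, against 23.6, 19.8 and 21.3 CPM in control 35, 36 and 37; control 35 was the highest and the other libraries lay close together. Its log2 fold change was −0.10 (SE 0.10). Atg7 was the steadiest of all 42 members, at 22.4, 21.0 and 22.1 CPM in TFEB 34, 41 and 43, and 21.3, 21.0 and 22.6 CPM in control 35, 36 and 37, a span of 1.08 times. Atg4d and Atg10 varied most within the group, by 1.60 and 1.52 times between their lowest library, TFEB 34, and their highest, TFEB 43. The log2 fold changes were 0.015 for Atg7, 0.032 for Atg4d and −0.088 for Atg10. Those of Atg3, Atg4b, Atg5, Atg12 and Atg16l1 ran from −0.026 for Atg4b to 0.056 for Atg12.

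Cargo receptors link ubiquitin-tagged cargo to LC3. Sqstm1 (Entrez gene 18412, on chromosome 11 between 50200152 and 50210820), whose protein p62 is both a receptor and a substrate of autophagy and whose gene is a known TFEB target, stood at 527, 387 and 383 CPM in TFEB 34, 41 and 43, against 434, 457 and 417 CPM in control 35, 36 and 37. TFEB 34 was the highest of the 6 libraries, while TFEB 41 and 43 were the lowest, so the means of 432 ± 82.0 CPM in TFEB overexpression and 436 ± 20.2 CPM in control (SD, n = 3 each) were nearly equal. The log2 fold change was −0.012 (SE 0.16), and −0.18 without TFEB 34. Tax1bp1 (Entrez gene 52440, on chromosome 6 between 52713692 and 52766780), a receptor for aggregates and damaged organelles, stood at 155, 149 and 153 CPM in TFEB 34, 41 and 43, against 167, 156 and 163 CPM in control 35, 36 and 37. All TFEB libraries lay below all control libraries, but by at most 1.12 times. The log2 fold change was −0.091 (SE 0.088) and did not pass the test.

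Optn, the gene of optineurin, a receptor for ubiquitin-tagged mitochondria, had the highest fold change of the members. It stood at 79.0, 95.9 and 111 CPM in TFEB 34, 41 and 43, against 78.0, 99.1 and 85.1 CPM in control 35, 36 and 37, with a log2 fold change of 0.13 (SE 0.16). TFEB 43 was highest, but TFEB 34 lay with the lowest control, and without TFEB 43 the value was 0.00017. Nbr1, a receptor that works beside p62, and Calcoco1, a receptor for endoplasmic reticulum and Golgi, had log2 fold changes of −0.083 (SE 0.12) and −0.058 (SE 0.16).

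BNIP3 and BNIP3L (NIX) sit in the outer mitochondrial membrane and bind LC3 directly, and both genes are induced by hypoxia. Bnip3 (Entrez gene 12176, on chromosome 7 between 138890836 and 138909506) stood at 183, 161 and 166 CPM in TFEB 34, 41 and 43, against 189, 235 and 167 CPM in control 35, 36 and 37. Control 36 was the highest library, control 35 and TFEB 34 were next, and control 37 lay among the TFEB libraries. Its ratio was 0.860 with an interval of 0.670 to 1.11, or −0.22 (SE 0.15) as a log2 fold change, and without control 36 the log2 fold change was −0.071. Bnip3l (Entrez gene 12177, on chromosome 14 between 66985238 and 67008877) stood at 109, 93.4 and 96.8 CPM in TFEB 34, 41 and 43, against 105, 103 and 95.5 CPM in control 35, 36 and 37. Its groups overlapped, at a log2 fold change of −0.021 (SE 0.10).

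The last step is tethering to the lysosome and fusion with it. Rab7 (Entrez gene 19349, on chromosome 6 between 87999106 and 88045270), the GTPase of late endosomes and lysosomes, stood at 304, 317 and 328 CPM in TFEB 34, 41 and 43, against 300.1, 339 and 316 CPM in control 35, 36 and 37. The lowest and the highest value were both in control, and the log2 fold change was −0.011 (SE 0.11). Tecpr1, a tether that binds the ATG12 and ATG5 conjugate, had the smallest p of this group. It stood at 75.2, 66.6 and 74.6 CPM in TFEB 34, 41 and 43, against 74.0, 77.7 and 70.3 CPM in control 35, 36 and 37, with overlapping groups and a log2 fold change of −0.036 (SE 0.091). Vps11 and Vps18, core subunits of the HOPS tethering complex, had log2 fold changes of 0.0098 and −0.030, and Epg5 one of 0.040. None of the 5 passed the test.

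**Figure D3:**
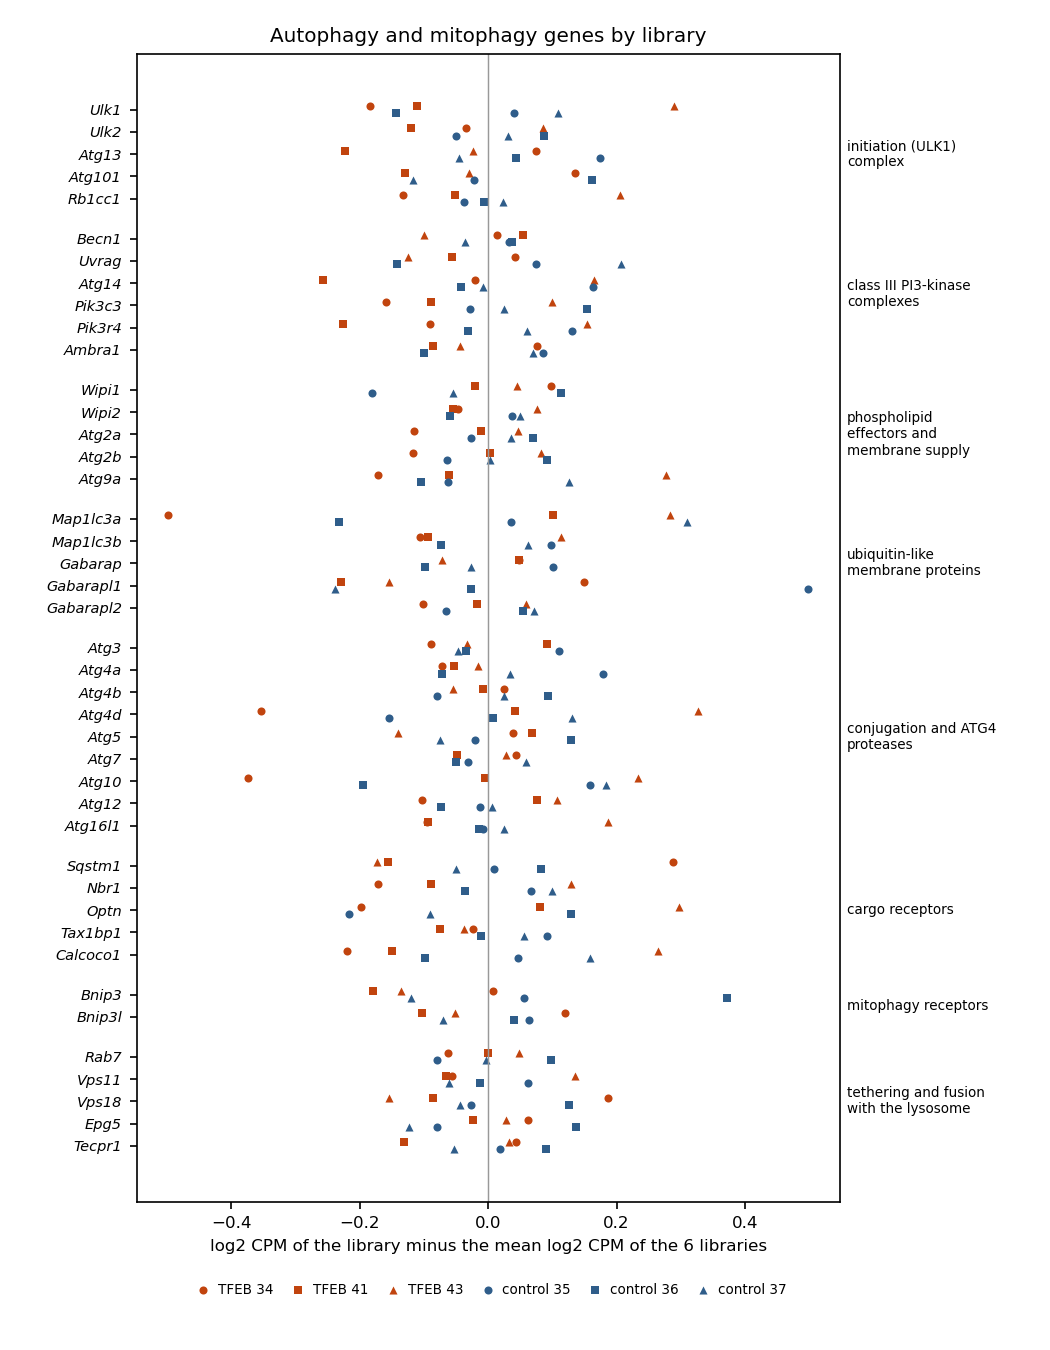
Log2 CPM of each gene in each library relative to its mean over the 6 libraries, with TFEB overexpression (orange) drawn above control (blue) in each row. The groups overlap in every row but that of Tax1bp1, and TFEB 34 (orange circle) and TFEB 43 (orange triangle) often mark opposite ends.

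Members varied less between libraries than most genes. The SD of log2 CPM over the 6 libraries had a median of 0.10 among the members, from 0.048 for Atg7 to 0.31 for Map1lc3a, against a median of 0.21 over all genes tested and 0.16 over the 8259 genes with at least the mean CPM of the least counted member. It lay under the first of these medians in 38 of 42 members and under the second in 32. What variation there was often set TFEB 34 against TFEB 43. Of the 42 members, 17 were lowest in TFEB 34 and 15 highest in TFEB 43, and 10 were both: Ulk1, Rb1cc1, Atg9a, Map1lc3b, Atg4d, Atg10, Atg12, Atg16l1, Nbr1 and Calcoco1. The next largest counts were 12 members highest in control 36 and 10 lowest in TFEB 41. Such counts were not made over all genes tested, so they do not show a trait particular to the members.

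TFEB 34 and TFEB 43 were also the extremes of the cardiomyocyte and the matrix markers. For each list, log2 CPM was centred gene by gene over the 6 libraries and averaged over its tested genes within a library. Cardiomyocyte markers, all 14 tested, were lowest in TFEB 34 at −0.43 and highest in TFEB 43 at 0.38; control libraries lay between −0.17 and 0.27. Matrix and myofibroblast markers, all 12 tested, ran the other way, with 1.88 in TFEB 34 and −2.37 in TFEB 43; control libraries lay between −1.67 and 1.17. Macrophage markers, all 11 tested, read 0.91 in TFEB 34 and −0.68 in TFEB 43; control libraries lay between −0.79 and 0.19. Fibroblast markers, all 12 tested, lay between −0.71 and 0.40 in the TFEB libraries and between −0.25 and 0.37 in the control libraries. Smooth muscle and pericyte markers, all 8 tested, lay between −0.24 and 0.35 in the TFEB libraries and between −0.30 and −0.017 in the control libraries. Endothelial markers, all 8 tested, lay between −0.12 and 0.035 in the TFEB libraries and between −0.10 and 0.093 in the control libraries. Within the smooth muscle list, Acta2, whose promoter drives the Cre, was at 214, 291 and 174 CPM in TFEB 34, 41 and 43, against 106, 100.3 and 137 CPM in control 35, 36 and 37. Its values did not overlap, and its ratio of 1.98 had an edgeR p of 0.00394 before adjustment and 1.00 after it. All 8 genes of the smooth muscle list had a positive log2 fold change, from 0.0045 for Myh11 to 0.98 for Acta2. Rgs5 was at 0.025, and the groups overlapped in every gene of the list but Acta2. In the endothelial list, Pecam1, a junction protein gene, also did not overlap, at 253, 239 and 236 CPM in TFEB 34, 41 and 43, against 281, 262 and 266 CPM in control 35, 36 and 37. Its log2 fold change was −0.15, with an edgeR p of 0.174 before adjustment. The other endothelial markers all overlapped, and in the whole list 3 were higher and 5 lower in TFEB overexpression. Of the adipocyte markers, 4 of 6 were tested, and all 4 were lower in every TFEB library than in any control, with list levels of −3.84, −0.65 and −0.84 in TFEB 34, 41 and 43, against 1.56, 3.67 and 0.10 in control 35, 36 and 37. Of all genes tested, 2.51% were lower without overlap. Log2 fold changes of these 4 ran from −4.17 to −3.42, with edgeR p from 0.0124 to 0.0228 before adjustment, and none was called. Their levels were low, at most 6.37 CPM in the TFEB libraries. Control 36 was the highest, with Cfd at 154 CPM against 22.7 and 9.57 CPM in control 35 and 37. Adipoq and Cidec were at 0 CPM in TFEB 34. The mean of the 42 members moved far less, between −0.060 and 0.058 in the TFEB libraries and between 0.011 and 0.026 in the control libraries. In such a mean, members that move in opposite directions cancel. Single members moved more, with a range of log2 CPM over the 6 libraries of up to 0.81, in Map1lc3a.

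With the cardiomyocyte level as a covariate, edgeR called 0 members, and the log2 fold change of Map1lc3a was −0.12 with an SE of 0.10, where it was 0.24 without the covariate. The SE of Sqstm1 likewise was 0.091 with the covariate and 0.16 without it. For Gabarapl1 and Bnip3 the log2 fold changes with the covariate were −0.15 (SE 0.16) and −0.20 (SE 0.12). With the cardiomyocyte covariate 42 of 42 intervals lay within 1.5-fold in either direction, and with the matrix and myofibroblast level as the covariate 41 did. The matrix covariate also left 0 members called; the smallest unadjusted p of a member was 0.0995 with it and 0.15 with the cardiomyocyte covariate. For Ulk1 the log2 fold change was −0.021 (SE 0.10) with the cardiomyocyte covariate and 0.026 (SE 0.076) with the matrix covariate, where its SE was 0.16 without either. The median SE of the members was 0.087 with the cardiomyocyte covariate, 0.089 with the matrix covariate and 0.11 without a covariate. Both covariates were computed from the same 6 libraries, so these values and intervals hold at a given marker level. Whether TFEB overexpression itself changes that level was not tested. The macrophage, fibroblast, smooth muscle, endothelial and adipocyte levels were not tested as covariates.

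**Figure D4:**
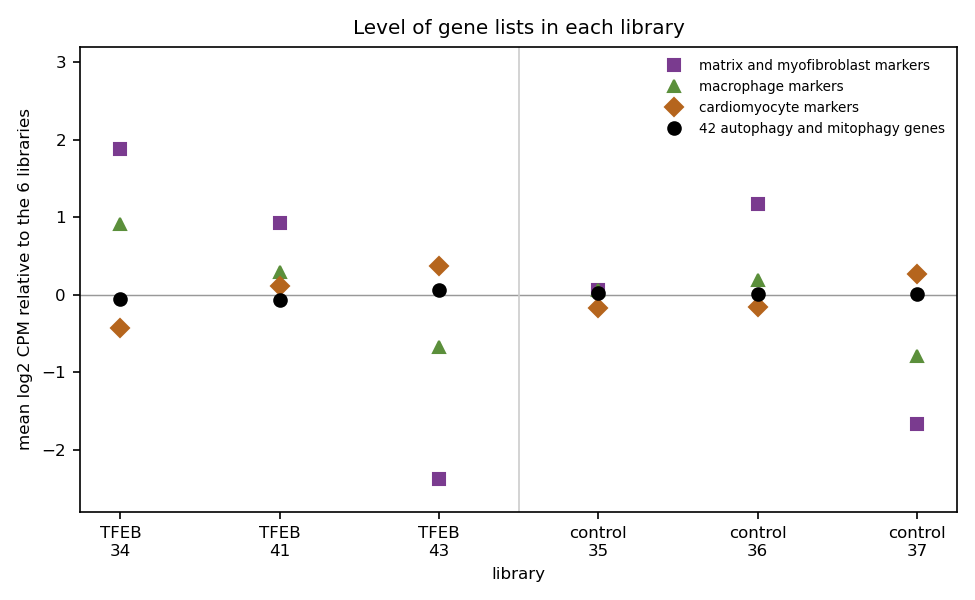
Mean log2 CPM, relative to the 6 libraries, of the 42 autophagy and mitophagy genes (black circles) and of 3 marker lists in each library. Matrix and myofibroblast markers span 1.88 to −2.37 within the TFEB libraries and cardiomyocyte markers run the opposite way, while the black circles stay within 0.060 of 0.

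Transcript models of the members were compared as shares of the TPM of their gene. The table holds 156 models of the 42 genes, and 8 genes have a single model, among them 4 of the 5 genes of ubiquitin-like proteins. In 34 genes, 75 models held at least 5% of the TPM on average. The shares of the groups did not overlap in 11 of these models, or 14.7%, against 8.64% of all such models of the table; they belong to 8 genes, or 23.5% of the 34, against 17.0% of all genes. No test was run on the shares, and shares within a gene are not independent.

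The largest difference in mean share was in Vps18, the HOPS subunit, where a predicted second model (XM_036161343) held 23.6%, 31.3% and 22.9% of the TPM in TFEB 34, 41 and 43, against 0%, 0.880% and 19.6% in control 35, 36 and 37. Control 37 lay close to the TFEB libraries. The model rested on 91.1, 87.5 and 53.6 estimated counts in the TFEB libraries, and on 0, 2.85 and 52.7 in the control libraries. In control 35 Vps18 had 332 counts in all, so that 0 allows a share of up to 0.904% of them, for counting error only. In Wipi2 the main model (NM_178398) held 47.4%, 45.2% and 55.2% in TFEB 34, 41 and 43, against 55.5%, 58.5% and 59.2% in control 35, 36 and 37. In Ambra1 a predicted model (XM_006499253) held 52.2%, 58.5% and 44.6% in TFEB 34, 41 and 43, against 43.3%, 44.4% and 35.7% in control 35, 36 and 37. In Wipi2 and Ambra1 TFEB 43 lay almost level with the nearest control library. In Sqstm1 the minor model NM_001290769 held 20.5%, 19.8% and 20.5% in TFEB 34, 41 and 43, against 18.7%, 19.6% and 19.5% in control 35, 36 and 37. The quantification divides reads between overlapping models, and its error is not given in the table.

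**Figure D5:**
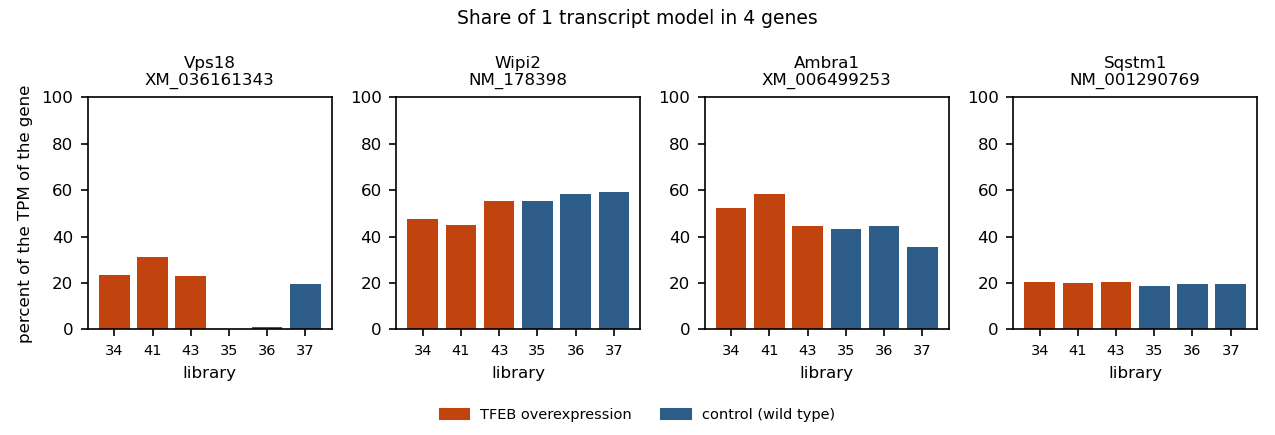
Percent of the TPM of the gene held by 1 transcript model of Vps18, Wipi2, Ambra1 and Sqstm1 in the TFEB overexpression libraries (orange) and the control libraries (blue). Bars start at 0; the groups do not overlap in any panel, but in Wipi2, Ambra1 and Sqstm1 the nearest libraries of the groups are almost level.

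Because TFEB binds CLEAR elements, the RefSeq promoter windows of build GRCm38.p6 (250 bases before to 50 after each annotated start) were searched for the E-box core CACGTG and for TCACGTGA, the core of the CLEAR element, which contains it. Both are palindromes and so read the same on either strand. Windows were found for 33 of 42 members. Of these genes 5, or 15.2%, held CACGTG, against 8.09% of all 27025 genes with a window, and 1, or 3.03%, held TCACGTGA, against 1.12%. The stretches around the motif are shown for these 5 genes because they hold CACGTG, and only Atg3 also holds TCACGTGA. Whether TFEB binds any of these stretches was not tested. Capitals mark CACGTG and, in Atg3, also TCACGTGA, and each sequence is written 5′ to 3′ on the strand of its gene.
Atg14 (chr14:47568410-47568455, minus strand): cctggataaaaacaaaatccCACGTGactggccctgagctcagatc
Atg3 (chr16:45158715-45158783, plus strand): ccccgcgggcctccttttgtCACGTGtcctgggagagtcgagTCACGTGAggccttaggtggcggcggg
Atg5 (chr10:44268305-44268350, plus strand): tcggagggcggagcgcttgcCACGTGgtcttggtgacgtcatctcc
Atg7 (chr6:114670944-114670989, plus strand): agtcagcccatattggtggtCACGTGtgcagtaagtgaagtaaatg
Bnip3 (chr7:138909589-138909634, minus strand): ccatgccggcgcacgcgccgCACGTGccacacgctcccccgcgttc
In Atg3 the letters CACGTG began 94 and 71 bases before the annotated start, and the copy nearer the start lies inside the CLEAR core. The motif began 108 bases before the start in Bnip3, 14 bases before it in Atg5 and 1 base before it in Atg14. The Atg7 window belongs to a start 27969 bases inside the gene, counted from its outermost RefSeq start, and the motif began 132 bases before that internal start. The windows of Bnip3, Atg14 and Atg3 lie at the outermost start, and that of Atg5 is at a start 17 bases inside it. Sqstm1, Map1lc3b, Wipi1 and Uvrag had windows without these letters.

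Members with and without the motif had similar values in this comparison, which no test was run on. Of the 5 that held it, 1 had a positive log2 fold change, Atg7 at 0.015, and the median was −0.022; of the 28 members with a window but no CACGTG, 6 were positive and the median was −0.037. Atg3, the conjugating enzyme gene with the CLEAR core, stood at 24.6, 27.8 and 25.5 CPM in TFEB 34, 41 and 43, against 28.2, 25.5 and 25.3 CPM in control 35, 36 and 37. The groups overlapped, and the ratio was 0.987 with an interval of 0.837 to 1.16, or −0.019 (SE 0.10) as a log2 fold change.

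Other genes of the pathway, in 4 lists that share no gene with the members, also held no gene past the test. Of 53 tested, 0 passed the edgeR test in either direction and 0 had an unadjusted p under 0.05; 21 were higher and 32 lower in TFEB overexpression, and the median of their log2 fold changes was −0.013. Wdfy3, Wdr45 and Ykt6 were the 3 whose groups did not overlap, or 5.66% of the 53 against 4.75% of all genes tested. Among 15 other mitophagy genes, 3 were higher and 12 lower. Among these, Tbk1, the kinase that activates optineurin, had a log2 fold change of −0.14 (SE 0.11).

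Among 16 other genes of autophagosome formation, Wdfy3, a large adaptor for aggregate clearance, exceeded every control value in each TFEB library. It stood at 94.3, 96.7 and 92.9 CPM in TFEB 34, 41 and 43, against 80.5, 91.7 and 80.5 CPM in control 35, 36 and 37, with a log2 fold change of 0.17 (SE 0.091) and an edgeR p of 0.111 before adjustment. Wdr45, a WIPI family gene, was lower in all of them, at 28.8, 29.1 and 30.0 CPM in TFEB 34, 41 and 43, and 33.1, 30.1 and 32.5 CPM in control 35, 36 and 37, with a log2 fold change of −0.12 (SE 0.084). Among 13 other fusion genes, the SNARE gene Ykt6 also exceeded every control value in each TFEB library, at 101, 99.4 and 99.2 CPM in TFEB 34, 41 and 43, against 95.7, 97.2 and 91.6 CPM in control 35, 36 and 37. Its log2 fold change was 0.075 (SE 0.079), and that of the HOPS gene Vps16 was −0.069 (SE 0.089). Among 9 other cargo receptors that were tested, of 10 listed, the ferritin receptor gene Ncoa4 had a log2 fold change of −0.17 (SE 0.11) and Ccpg1, a receptor of the endoplasmic reticulum, one of −0.12 (SE 0.11).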

How the data were processed

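Total RNA of 6 libraries was sequenced, 3 labelled TFEB overexpression and 3 control. HISAT2 2.1.0, Bowtie2 2.3.4.3, RSEM 1.3.1, DESeq2 1.4.5 and build mm10 are named in the submitters' processing notes, with no role given. The authors deposited estimated counts, TPM and FPKM values per RefSeq transcript, per the file headers; FPKM values and an empty set of normalised read count columns were not used. Estimated counts were summed over the transcripts of each Entrez gene (62498 transcripts, 17524 genes) and rounded; genes with no symbol held 0.51% of them. Splitting of reads between near-identical copies by the quantification could shift single genes.

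All genes passing filterByExpr (13565) were fitted with edgeR 4.0.16 (TMM scaling, glmQLFit, glmQLFTest, two-sided; R 4.3.3), with Benjamini-Hochberg adjustment over all of them and calls at an adjusted p under 0.05. The step was tested on simulated counts of 13565 genes, of which 100 were changed 2-fold and 100 were changed 4-fold. There, edgeR called 32% of the 2-fold and 85% of the 4-fold changes, with 9 false calls. DESeq2 called 56% and 91%, with 50 false calls. Alternatives were RLE scaling, DESeq2 1.42.0, limma-voom (limma 3.58.1), no count filter, limma on log2(TPM + 1) and log2(TPM + 0.1) with TPM of at least 1 in 3 libraries, covariates of cardiomyocyte or matrix marker level, and leaving out each library.

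The members, pathway lists and marker lists were chosen with earlier results of these data known. Values of every library are given for members with no overlap or an unadjusted p under 0.05, the 5 genes of ubiquitin-like membrane proteins, Sqstm1, Ulk1, Becn1, Bnip3, Bnip3l, Rab7 and the member with the smallest p in each role, and up to 2 genes are named per pathway list by smallest p; 1 of them is not reported here. Optn, Atg7, Atg3, Acta2 and Pecam1, the count within 1.5-fold, the alternatives for groups that do not overlap and the transcript models shown were chosen after the values were seen. Model shares are percents of the TPM of a gene, for genes of at least 5 TPM and models of at least 5%. An exact permutation test of 3 against 3 cannot go below p = 0.10, so none was run.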

Additional observations from a re-analysis of the deposited data

How the results depend on the processing

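No member passed the test under any of the 14 alternatives, and the smallest adjusted p of a member was 0.792, without TFEB 43. Over all genes, edgeR's quasi-likelihood test called 0 genes, with 164 at an unadjusted p under 0.05, and DESeq2 called 1 gene. The number of members with a higher value in TFEB overexpression ran from 11 to 23, and their median log2 fold change from −0.074 to 0.012, as each library was left out. Members whose groups did not overlap numbered 1 to 8 with a library left out, where fewer libraries make this easier; the 8 (19.0%, without TFEB 43) stood against 20.3% of all genes tested, and in each of the other 5 cases the share of members was also below that of all genes. By TPM they numbered 0, against 4.11% of all genes tested. The signs of small fold changes were not stable, and the cause was not tested. With the cardiomyocyte level as a covariate the log2 fold change was −0.021 for Ulk1, −0.020 for Atg4d and −0.0096 for Atg16l1. By limma-voom that of Atg16l1 was −0.0042. On the log2(TPM + 1) and log2(TPM + 0.1) scales, which understate changes of low genes, it was 0.014 and 0.014 for Becn1, 0.021 and 0.022 for Atg2a, 0.013 and 0.014 for Atg2b, and −0.010 and −0.011 for Atg16l1. With single libraries left out, 29 members took both signs. Among initiation and lipid kinase genes the values ran from −0.15 to 0.10 for Ulk1, −0.10 to 0.019 for Ulk2, −0.092 to 0.065 for Atg101, −0.085 to 0.088 for Rb1cc1, −0.043 to 0.023 for Becn1, −0.17 to 0.050 for Atg14 and −0.094 to 0.013 for Ambra1. Among membrane genes they ran from −0.061 to 0.021 for Wipi2, −0.068 to 0.031 for Atg2b and −0.11 to 0.13 for Atg9a. Among the ubiquitin-like proteins they ran from −0.22 to 0.14 for Map1lc3a, −0.029 to 0.071 for Gabarap, −0.33 to 0.060 for Gabarapl1 and −0.081 to 0.00067 for Gabarapl2. Among conjugation genes they ran from −0.056 to 0.033 for Atg3, −0.071 to 0.015 for Atg4b, −0.14 to 0.19 for Atg4d, −0.063 to 0.040 for Atg5, −0.0063 to 0.058 for Atg7, −0.24 to 0.060 for Atg10 and −0.10 to 0.067 for Atg16l1. Among receptors they ran from −0.18 to 0.078 for Sqstm1, −0.22 to 0.033 for Calcoco1 and −0.090 to 0.041 for Bnip3l. Among fusion genes they ran from −0.053 to 0.037 for Rab7, −0.058 to 0.061 for Vps11, −0.14 to 0.036 for Vps18, −0.0092 to 0.12 for Epg5 and −0.071 to 0.034 for Tecpr1. No paired analysis was possible because the labels do not say which libraries, if any, form pairs. Members had 189 to 8282 counts per library, and 3 libraries a group limit the precision of every interval.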
